A study of Caenorhabditis elegans with 8 samples.

Results

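The subject here is 21849 genes of Caenorhabditis elegans that share the position given for them, a merged locus, with at least 1 other gene in the authors' deposited poly(A) table. They were chosen by that position text alone: 2 or more gene identifiers had to carry the same chromosome, start and end. They make up 48.6% of the 44968 genes in the table and lie in 6758 of its 29877 loci, and the other 23119 genes have a locus of their own. No measured level entered the choice. Merging any loci that overlap left the same 29877 loci, so no merged locus was missed for want of identical text.

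The study compared worms under RNA interference (RNAi) against CstF50 with wild-type worms, which the header of the poly(A) table names as the strain N2 with the empty vector L4440. All worms were synchronized young adults from liquid culture, and every library came from whole washed animals extracted with Trizol. Each group has 2 poly(A)-selected and 2 rRNA-depleted libraries, 8 in all. The poly(A) table gives 1 FPKM (fragments scaled to transcript length and sequencing depth) per group, and the rRNA-depleted table gives, per gene, a mean normalized count for each of 2 conditions headed only A and B. Those conditions were therefore not assigned to a treatment.

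CstF50 belongs to the cleavage stimulation factor, a complex that helps to cut nascent transcripts at their 3' end before a poly(A) tail is added. Worm genes are closely packed. Many lie in operons, in which 1 promoter serves several genes and the long transcript is cut into separate mRNAs by 3' end formation coupled to trans-splicing. Others run towards each other so that their 3' ends meet, and small RNA genes often sit inside the introns of coding genes. A table that gives 1 position to a run of touching or overlapping genes thus gathers neighbours of several kinds, and reads in their shared stretch could be credited to more than 1 of them.

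Most merged loci were small. Of the 6758 loci, 4674 (69.2%) held exactly 2 genes, while 180 held more than 10 and together contained 4990 genes. The median merged locus was 2213 base pairs long, against 1019 base pairs for a gene with its own locus. By content, 1715 loci held 2 or more protein-coding genes, 2302 held 1 coding gene with noncoding genes, and 2741 held no coding gene. Piwi-interacting RNA (piRNA) genes, which encode germline small RNAs, were the most numerous class with 10187 members, 46.6% of all, and 9800 of them lay on chromosome IV. Protein-coding genes came next with 6126 members (28.0%), which is 31.8% of the coding genes in the table. They were followed by 4216 genes for other noncoding RNAs, 465 tRNA genes, 439 pseudogenes, 115 genes for small nucleolar RNA (snoRNA) and 80 for small nuclear RNA (snRNA). Of all snoRNA genes 81.6% lay in merged loci, and the share was 76.4% of tRNA genes and 21.9% of pseudogenes.

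The 3 loci with the most members all lay on chromosome IV and were arrays of piRNA genes around 1 coding gene. The largest, IV:15997633-16026815 (ce10), held 146 genes: 143 piRNA genes, 2 for other noncoding RNAs and jac-1, which encodes a p120-catenin family protein. The other two held 114 genes each, of which 112 were piRNA genes, around Y37A1A.4 and Y64G10A.7. No gene of these 3 loci was tested by the authors. The deposited FPKM of jac-1 was 2.92 in the group labelled CstF50 RNAi and 6.24 in wild type, and every piRNA gene of the 3 loci was listed at 0 in both.

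**Figure D1:**
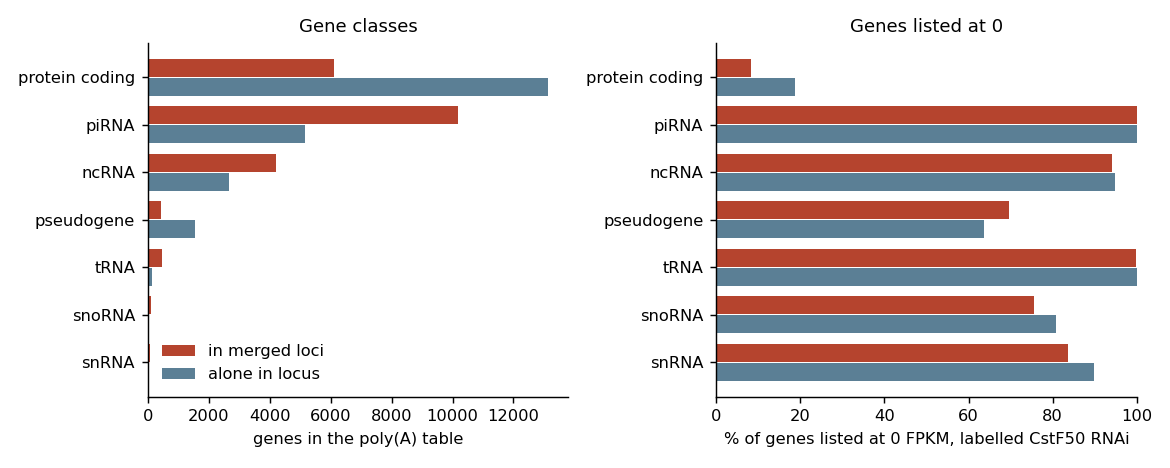
Genes of each class in merged loci (red) and with their own locus (blue). The left panel counts genes in the poly(A) table, with 10187 piRNA and 6126 coding members; the right panel gives the percentage of each class listed at 0 FPKM in the group labelled CstF50 RNAi, which was 100 for piRNA genes in both sets and lower for coding members than for coding genes alone.

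Some facts of the whole data set bear on what follows. How deeply the poly(A) libraries were sequenced is unknown, and with 1 value per group no spread between replicates can be shown for them. No label says that the 2 libraries of a group came from separate cultures, so every p-value here measures a spread that may be technical. Whole counts per library recovered from the rRNA-depleted means (up to 10000 normalized counts) summed to 35638137 and 15056102 in B and to 6657926 and 2252065 in A, so condition A is the shallower. The median tested gene had a log2 change in FPKM of -0.90 in the group labelled CstF50 RNAi over wild type (n = 8244 genes with FPKM above 0 in both), and changes were also tested relative to that shift. Sperm genes fixed as markers (39, of which 4 are members) summed to 1644 FPKM in the group labelled CstF50 RNAi, against 182 FPKM in wild type, with 2 and 7 of them listed at 0. Genes with name prefixes taken to mark cuticle (col-, dpy-, rol- and sqt-, 191, of which 65 are members) summed to 105069 FPKM there, against 51525 FPKM in wild type. The 10 oocyte and yolk genes (3 of them members) summed to 15438 FPKM there, against 19436 FPKM in wild type. The part of these tissues in the changes given below was not tested, and in whole worms fewer cells of a type and less RNA per cell cannot be told apart.

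The RNAi target is itself a member. The gene cpf-1, which encodes CstF50, shares II:8594298-8602421 (ce10) with F28C6.2, F28C6.4 and F28C6.5. In the authors' deposited table cpf-1 had 67.8 FPKM in the group labelled CstF50 RNAi, against 50.5 FPKM in wild type (log2 change 0.42, implied standard error 0.59, q = 0.613), so it was not lower in the group labelled as targeted, and every direction below rests on the labels. Its 3 neighbours had lower values there: 8.76 FPKM against 21.8 FPKM in wild type for F28C6.2, 2.13 against 5.21 FPKM for F28C6.4, and 2.27 against 2.74 FPKM for F28C6.5. Of these only F28C6.2 was tested, with q = 0.396. In rRNA-depleted RNA cpf-1 had recovered counts of 25338 and 15942 in B, against 1220 and 433 in A, a 5.11-fold higher normalized count in B (authors' adjusted p = 0.00296). The other 3 genes of the locus were not called there, with folds of 1.07 to 1.21 in B over A.

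Over all classes a larger share of members than of genes alone was listed at 0, and among protein-coding genes the order was the opposite. In the group labelled CstF50 RNAi 71.8% of members and 49.9% of genes alone were listed at 0 FPKM, and in wild type 72.6% of members and 52.6% of genes alone. Every piRNA gene, in merged loci or alone, was listed at 0 in both groups, and 99.8% of tRNA members and 94.1% of members for other noncoding RNAs were at 0 in the group labelled CstF50 RNAi. Among coding genes 8.23% of members, against 18.7% of genes alone, were listed at 0 in the group labelled CstF50 RNAi. In wild type these shares were 9.70% of coding members and 22.4% of coding genes alone.

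Coding members also had higher levels than coding genes alone, and those that share their locus with another coding gene had the higher levels among them. The median FPKM of all 6126 coding members was 2.97 in the group labelled CstF50 RNAi and 4.80 in wild type, against 1.33 and 1.70 for the 13145 coding genes alone. The 3824 coding members that share a locus with another coding gene had medians of 6.31 FPKM in the group labelled CstF50 RNAi and 10.8 FPKM in wild type. For the 2302 coding members with only noncoding genes beside them the medians were 0.923 and 1.53 FPKM, below those of coding genes alone. The share of genes that the authors tested moved with these levels: 57.8% of coding members beside another coding gene, 30.2% of those beside noncoding genes only, and 39.2% of coding genes alone. FPKM is a level per length, but an estimate for overlapping genes depends on how shared reads were divided, which is not given in the sources used here. No test was made of these differences between sets, because genes of the same libraries are not replicates.

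A smaller share of tested members than of tested genes alone was called changed, while the median changes were nearly the same. In the authors' deposited table a gene counts as called where q is under 0.05, and 16.8% of all 8513 tested genes were called (3.12% higher and 13.6% lower in the group labelled CstF50 RNAi). Among members 353 of 3156 tested genes were called (11.2%), 48 higher and 305 lower, and among genes alone 1074 of 5357 (20.05%), 218 higher and 856 lower. The median log2 change was -0.92 in members (quartiles -1.45 and -0.35, n = 3010) and -0.89 in genes alone (quartiles -1.43 and -0.23, n = 5234). Relative to the median gene, where 6.15% of all 8244 genes with a fold passed at an adjusted p under 0.05, 111 members passed (106 higher, 5 lower) and 396 genes alone (359 higher, 37 lower). These are 3.69% of the members and 7.57% of the genes alone.

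The gap in calls was present in each band of mean FPKM. Under 10 FPKM 4.88% of 615 members and 10.9% of 1036 genes alone were called. From 10 to 30 FPKM the shares were 10.05% of members and 17.8% of genes alone, and from 30 to 100 FPKM they were 14.6% and 26.1%. At 100 FPKM or more 18.3% of 569 members and 26.0% of 1128 genes alone were called. The gap was also present among large changes: of genes with an absolute log2 change of 2 or more, 127 of 299 members (42.5%) and 429 of 609 genes alone (70.4%) were called. Coding members beside other coding genes were called in 10.9% of 2209 tests and those beside noncoding genes only in 14.96% of 695 tests, against 20.5% of 5153 tests of coding genes alone.

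**Figure D2:**
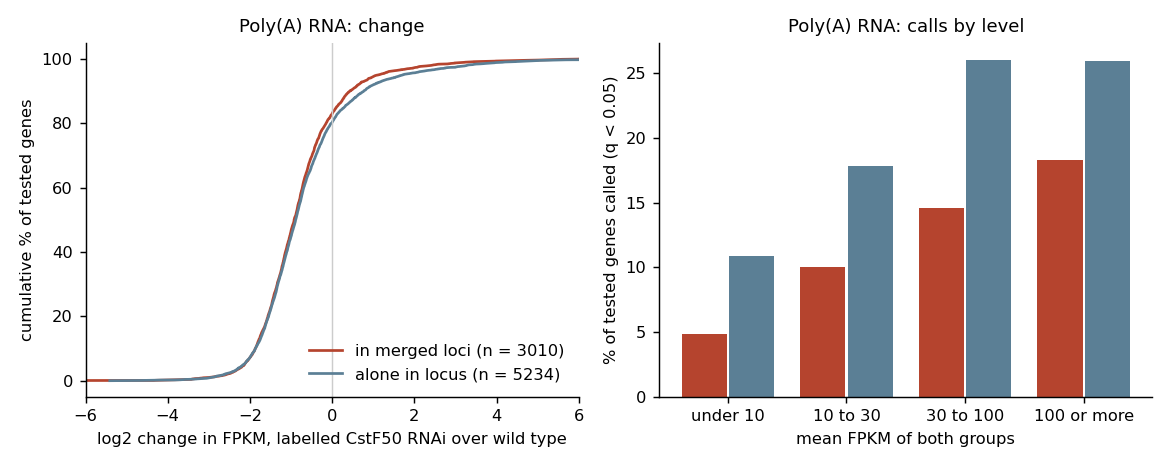
Left, cumulative share of tested genes by log2 change in FPKM, labelled CstF50 RNAi over wild type, for 3010 genes in merged loci (red) and 5234 genes alone (blue); the curves nearly coincide, with medians of -0.92 and -0.89. Right, percentage of tested genes called at q under 0.05 in 4 bands of mean FPKM, lower for genes in merged loci in every band.

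The error implied for each change was larger where a locus held more tested genes. The only error the table allows is implied: the absolute log2 change over the normal deviate that matches the deposited p-value. Its median was 0.72 in members and 0.60 in genes alone. A member that was the only tested gene of its locus had a median implied standard error of 0.63, close to that of genes alone. It was 0.77 with 2 tested genes in the locus, 1.00 with 3 and 1.75 with 4 or more. The share called followed the reverse order, at 15.6% of 1355, 8.72% of 1468, 5.56% of 216 and 1.71% of 117 tested genes, while the median log2 change stayed between -1.001 and -0.907. The implied error and the call come from the same p-value, so at like changes this order is not a separate result.

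**Figure D3:**
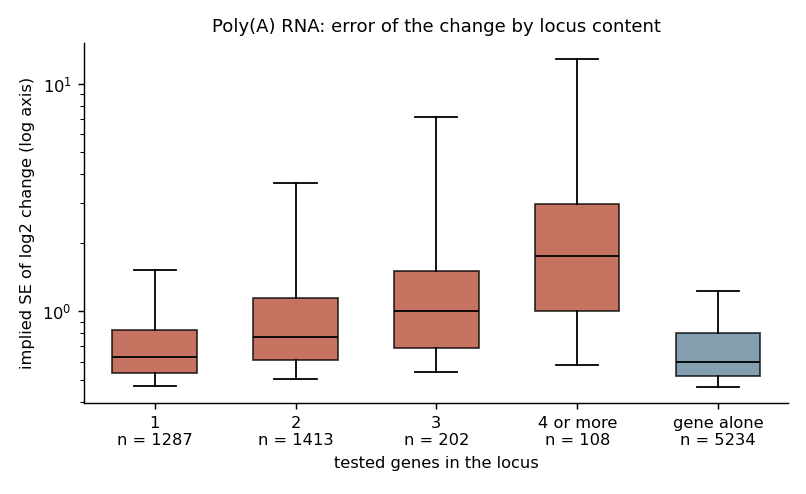
Implied standard error of the log2 change in poly(A) RNA (log axis) by the number of tested genes in a merged locus (red) and for genes alone (blue). Boxes give the quartiles and the median, whiskers the 5th and 95th percentiles; medians run from 0.63 for 1 tested gene to 1.75 for 4 or more, against 0.60 for genes alone.

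Within a locus the errors were uneven. In the 683 loci with exactly 2 tested genes that had a fold, the larger implied standard error was a median of 1.72 times the smaller, and over 3 times in 173 loci. The gene with the higher level was called in 96 loci (14.1%) and the gene with the lower level in 22 loci (3.22%). The median implied standard error was 0.65 for the gene with the higher level and 0.96 for the other, and their median log2 changes were -0.88 and -0.92. Here too the implied error and the call come from the same p-value.

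A further set of members had no test at all. The authors' status LOWDATA, which marks a locus that the software found too complex or too shallow to test, was given to 488 genes, and every one of them is a member, as are all 8 genes with the status HIDATA. Their median was 0 FPKM in both groups. Of the LOWDATA genes 34 were coding, and 7 exceeded 100 FPKM as a mean of both groups. A value of 0 in such a row is how the gene is listed, and whether its RNA was absent cannot be told from it. The noncoding gene T19C4.11, with the status LOWDATA, is listed at 0 FPKM in both groups. Its rRNA-depleted counts were 17213 and 3706 in B and 4578 and 1774 in A. T19C4.16 in the same locus had the same counts. The snoRNA gene T19C4.12 on the other strand had 17191 and 3700 in B, against 4379 and 1693 in A. These counts may thus not be those of T19C4.11, and they come from RNA that was not poly(A)-selected. The 5 LOWDATA genes with the highest levels, chosen after their values were seen, include cyn-3, which encodes a cyclophilin. It had 2744 FPKM in the group labelled CstF50 RNAi and 4649 FPKM in wild type. The 5 genes also include gpd-2, which encodes a glyceraldehyde-3-phosphate dehydrogenase, with 830 FPKM in the group labelled CstF50 RNAi and 1010 FPKM in wild type, and C09G4.4 with 118 and 379 FPKM. MTCE.4 (241 FPKM in the group labelled CstF50 RNAi and 889 FPKM in wild type) and MTCE.12 (134 and 454 FPKM) are coding genes of the mitochondrial genome. For none of the 5 does the deposited table give a usable p-value.

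The 353 called members lay in 352 different loci. Of 828 merged loci with 2 or more tested genes, 1 had 2 called genes, and none had calls in opposite directions. That locus, V:9547042-9549812 (ce10), holds his-37, which encodes a histone H4, and C50F4.14 on the other strand. In the authors' deposited table his-37 had 357 FPKM in the group labelled CstF50 RNAi, against 1219 FPKM in wild type (log2 change -1.77, implied standard error 0.64, q = 0.0388). C50F4.14 had 37.5 FPKM in the group labelled CstF50 RNAi, against 150 FPKM in wild type (log2 change -1.997, implied standard error 0.69, q = 0.0298). Neither passed relative to the median gene, with adjusted p of 0.612 and 0.497. Histone genes have near-identical copies, and how the authors treated reads that match several copies is not given in the sources used here, so the his-37 value is uncertain.

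Neighbouring coding genes of a merged locus were mostly convergent. Of 2102 such pairs, 61.6% were convergent (3' ends facing), 24.98% tandem (same strand) and 13.5% divergent, whereas of 10352 neighbouring pairs of genes alone 20.3% were convergent, 58.0% tandem and 21.7% divergent. Strand and order came from a later annotation of the same genome, WBcel235.

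Changes within a locus differed by about as much as those of neighbours in different loci. Among 774 within-locus pairs with a fold for both genes the median absolute difference in log2 change was 0.73, against 0.75 among 2162 pairs of neighbouring genes alone. Pearson's r across pairs was 0.09 within loci and 0.16 for genes alone, and Spearman's rho was 0.10 and 0.13. The sets differ in orientation, with 63.6% of these pairs convergent within loci and 14.1% among genes alone. By orientation r was 0.07 within loci and 0.05 for genes alone in convergent pairs, and 0.18 and 0.15 in tandem pairs. In divergent pairs it was 0.01 and 0.27. The median implied standard error was also larger within loci, 0.81 against 0.57. These describe pairs of genes that all share the same libraries. Both genes were called in 1 within-locus pair (0.129%) and in 109 pairs of genes alone (5.04%), while exactly 1 was called in 113 (14.6%) and 721 pairs (33.3%). Single genes of these pairs were called at 7.43% within loci and at 21.7% for genes alone, so fewer joint calls accompany fewer calls in all.

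**Figure D4:**
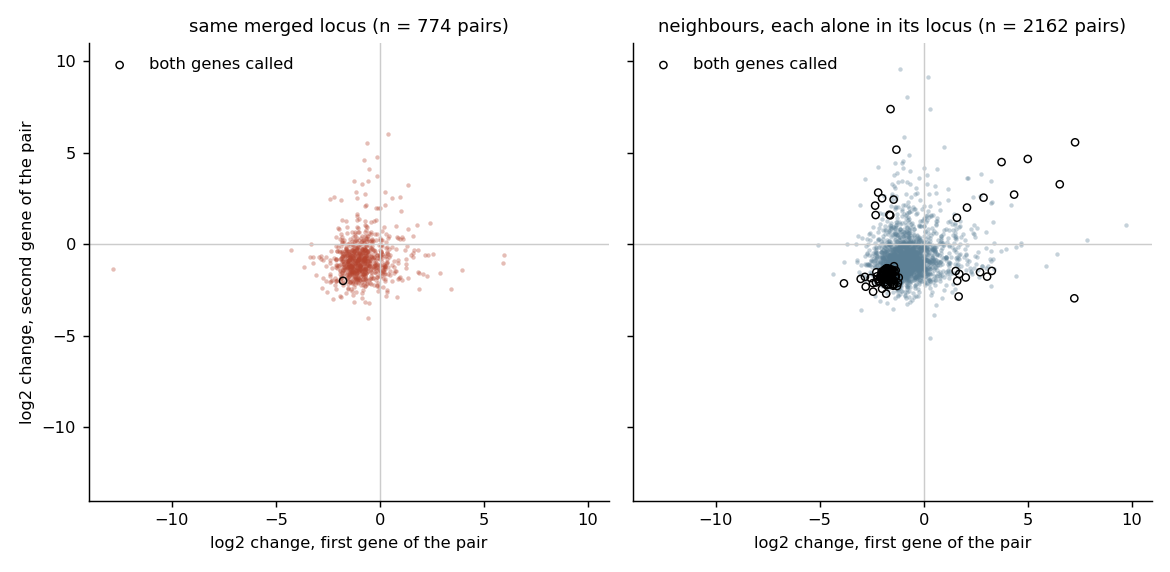
Log2 change in poly(A) RNA (labelled CstF50 RNAi over wild type) of the first and second gene of each pair of neighbouring coding genes: 774 pairs inside a merged locus (left) and 2162 pairs of genes alone (right). Black circles mark pairs with both genes called, 1 on the left and 109 on the right; in both panels most points lie below 0 on both axes with little tilt.

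By orientation, convergent pairs differed the most in both sets. The median absolute difference in log2 change was 0.79 in 492 convergent, 0.66 in 196 tandem and 0.73 in 86 divergent pairs within loci, against 0.96, 0.70 and 0.76 in pairs of genes alone. Among the 196 tandem pairs of a locus the downstream gene was a little lower in level, with a median of 20.3 FPKM in the group labelled CstF50 RNAi and 34.9 FPKM in wild type, against 23.1 and 42.8 FPKM for the upstream gene. The log2 change of the downstream gene minus that of the upstream gene had a median of 0.08, and it was positive in 105 of 196 pairs (53.6%). In 1339 tandem pairs of genes alone that median was 0.03, and the difference was positive in 51.6%.

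**Figure D5:**
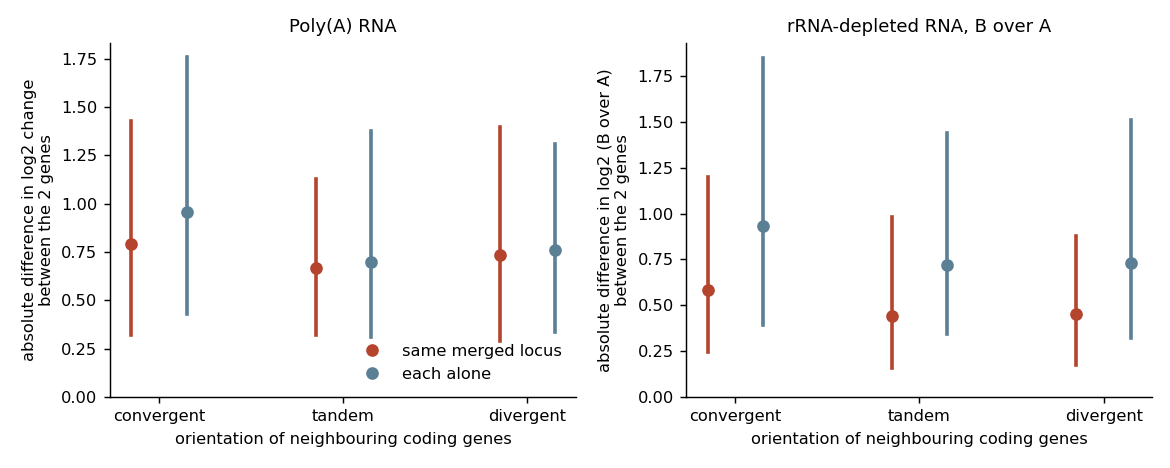
Absolute difference in log2 between the 2 genes of a neighbouring coding pair, by orientation, for pairs in the same merged locus (red) and pairs of genes alone (blue); points are medians and lines the quartiles. Left, poly(A) RNA, with within-locus medians of 0.79, 0.66 and 0.73; right, rRNA-depleted RNA (B over A), with within-locus medians of 0.58, 0.44 and 0.45, each below the pairs of genes alone.

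Known operons were only partly merged. Of a list of 22 genes in 10 operons or co-transcribed sets, 20 were found by name and 12 of these were members, but only 4 sets had 2 or more genes in the same locus. Of the 12 members 10 were tested and 1, cks-1, was called, and of the 8 list genes with their own locus 6 were tested and 1, vha-2, was called, against 16.8% of all tested genes. Relative to the median gene neither passed (adjusted p = 0.549 for cks-1 and 0.337 for vha-2), while the member rps-16, which encodes a ribosomal protein, passed with 16350 FPKM in the group labelled CstF50 RNAi and 9008 FPKM in wild type (log2 change 0.86, implied standard error 0.51, q = 0.216, adjusted p = 0.0126 relative to the median gene). The locus IV:8511271-8514711 (ce10) holds 3 coding genes of the same strand. Its member cks-1, which encodes a regulatory subunit of cyclin-dependent kinases, had 145 FPKM in the group labelled CstF50 RNAi, against 503 FPKM in wild type (log2 change -1.79, implied standard error 0.60, q = 0.0251). For mes-6, which encodes a Polycomb group protein, the values were 13.0 FPKM in the group labelled CstF50 RNAi and 39.5 FPKM in wild type (log2 change -1.61, implied standard error 0.83, q = 0.153). The third, C09G4.4, had the status LOWDATA. Its log2 change was -1.69, close to those of cks-1 and mes-6. Of the tested pair cks-1 was called, and its smaller implied error comes from the same p-value as the call.

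At X:3113424-3116586 (ce10) the pair mai-1 and gpd-2, of the same operon, had unlike FPKM values and nearly equal counts. The gene mai-1, related to inhibitors of the mitochondrial ATP synthase, had 16.6 FPKM in the group labelled CstF50 RNAi and 26.95 FPKM in wild type, with a log2 change of -0.70 and an implied standard error of 4.72 (q = 0.928), and gpd-2 was not tested. In rRNA-depleted RNA the recovered counts of mai-1 were 27359 and 10937 in B, against 2657 and 760 in A. Those of gpd-2 were 27054 and 10700 in B, against 2591 and 743 in A. The mai-1 counts exceeded those of gpd-2 by 305 and 237 reads in B, against 66 and 17 in A. Both were called higher in B, 2.20-fold for mai-1 and 2.22-fold for gpd-2 (authors' adjusted p = 3.52e-06 and 2.56e-06), and their near-equal counts are not 2 independent results.

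In the other merged sets, lin-15B with lin-15A and lir-1 with lin-26, no gene passed in poly(A) RNA. The pair lin-15B and lin-15A, which act in vulval fate and gene silencing, had log2 changes of -0.93 and -0.72 with implied standard errors of 0.72 and 0.85 (q = 0.351 and 0.552). In the authors' rRNA-depleted table lin-15B was called higher in B, with a mean of 1019 in B against 513 in A (adjusted p = 0.000617), and lin-15A had 329 in B against 207 in A (adjusted p = 0.560). For lin-26, which encodes a zinc finger factor of epithelial fate, and its relative lir-1 the log2 changes were -0.78 and 0.10 (q = 0.364 and 0.942).

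Of 3 sets of genes picked by name, the set with collagen names was the largest and had the most calls. Its genes were chosen by name prefix, and whether each encodes a collagen was not checked. In poly(A) RNA 30.8% of its tested members and 54.7% of its tested genes alone were called. For sperm names the shares were 0% of 3 tested members and 62.5% of 24 tested genes alone. Of 65 members with collagen names (col-, dpy-, rol- and sqt-), 26 were tested and 8 called, 7 higher and 1 lower in the group labelled CstF50 RNAi. Of 126 genes alone with such names, 86 were tested and 47 called, 40 higher and 7 lower. Over all tested genes 16.8% were called, 3.12% higher and 13.6% lower. By the authors' adjusted p in rRNA-depleted RNA, 21 of 63 members and 57 of 126 genes alone with these names were called, all higher in B. Of all 25640 genes 5.54% were called higher in B. The median log2 change in FPKM of the tested genes was 1.34 in both sets. The called collagen member with the largest change was dpy-4, in a locus of 70 genes at IV:14981577-14996284 (ce10), with 208.5 FPKM in the group labelled CstF50 RNAi, against 1.39 FPKM in wild type (log2 change 7.23, implied standard error 1.98, q = 0.00617). Next were col-71 with 141 FPKM in the group labelled CstF50 RNAi, against 3.40 FPKM in wild type (log2 change 5.38, implied standard error 0.96, q = 7.7e-06), and col-48 with 204 FPKM, against 26.8 FPKM (log2 change 2.93, implied standard error 0.95, q = 0.0219).

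Some members had large changes without a call. The 4 largest among coding members that were tested and not called were chosen after their values were seen. The collagen gene sqt-2 had 17.1 FPKM in the group labelled CstF50 RNAi and 0.273 FPKM in wild type, with a log2 change of 5.97 and an implied standard error of 7.03 (q = 0.547). It was called in the authors' rRNA-depleted table, with recovered counts of 710 and 251 in B, against 1 and 0 in A (adjusted p = 4.06e-15). Another collagen gene, col-111, had 31.8 FPKM in the group labelled CstF50 RNAi and 0.489 FPKM in wild type (log2 change 6.02, implied standard error 2.87, q = 0.124), and it too was called in rRNA-depleted RNA, with counts of 442 and 186 in B, against 9 and 4 in A (adjusted p = 4.65e-05). F32H2.7 had a log2 change of 5.90 (implied standard error 3.51, q = 0.218) and counts of 450 and 149 in B, against 0 and 0 in A, which is at least 36.3-fold higher in B if 3 counts over the pair of A libraries are taken as the floor (adjusted p = 4.64e-10). In ocr-1, which encodes a TRPV channel subunit, the deposited values were 0.0148 FPKM in the group labelled CstF50 RNAi and 108 FPKM in wild type, with an implied standard error of 9.73 for a log2 change of -12.83 (q = 0.338). Its counts were 25 and 12 in B, against 10 and 10 in A (adjusted p = 1), with mean normalized counts of 7.34 in B and 26.8 in A. Of the other coding genes in these 4 loci, tba-6 beside F32H2.7 was also called higher in B, 5.80-fold (authors' adjusted p = 0.000211). F32H2.6, C01B12.8, F23F1.4, psr-1 and D1054.1 were not called there.

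The sperm genes among the members also had large changes without a call. The 3 members with sperm names, msp-31, msp-33 and msp-45, encode major sperm proteins, and each lies on chromosome II with 1 coding neighbour. In the deposited table msp-31 had 93.7 FPKM in the group labelled CstF50 RNAi and 7.17 FPKM in wild type (log2 change 3.71, implied standard error 2.95, q = 0.361). The values of msp-33 were 23.9 FPKM in the group labelled CstF50 RNAi and 2.79 FPKM in wild type (log2 change 3.10, implied standard error 1.59, q = 0.153), and those of msp-45 were 36.8 and 6.81 FPKM (log2 change 2.43, implied standard error 1.04, q = 0.0824). None was called, against 15 of 24 tested sperm genes alone, all higher in the group labelled CstF50 RNAi, where 3.12% of all tested genes were called higher. Relative to the median gene msp-45 passed (adjusted p = 0.0258), and msp-33 and msp-31 had adjusted p of 0.137 and 0.521. Both sets had similar medians of the log2 change, 3.10 in the members and 3.33 in genes alone. In rRNA-depleted RNA all 3 members and 29 of 34 sperm genes alone were called higher in B, where 5.54% of all 25640 genes were. These genes are a multigene family of near-identical copies, so their values are uncertain. Of the yolk protein genes, vit-3, vit-4 and vit-6 are members, none was called in either table, and vit-3 had the lowest log2 change in poly(A) RNA, -0.97 with an implied standard error of 0.51 (q = 0.166).

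The 6 called members with the largest change in each direction, dpy-4 and col-71 among them, were chosen after their values were seen. Relative to the median gene all 6 that were higher passed, and of the 6 that were lower clec-190 did. In rRNA-depleted RNA 6 of the 12 were called: dpy-4, col-71, gpdh-1 and nspd-10 higher in B, and clec-190 and Y44A6D.2 lower. The gene gpdh-1, whose enzyme acts in glycerol synthesis under osmotic stress, had 98.6 FPKM in the group labelled CstF50 RNAi, against 2.43 FPKM in wild type (log2 change 5.34, implied standard error 1.32, q = 0.00243), while its neighbour F47G4.2 had 4.48 and 5.52 FPKM and was not tested. In rRNA-depleted RNA gpdh-1 had counts of 3288 and 1330 in B, against 6 and 7 in A (adjusted p = 1.44e-51), and F47G4.2 had 725 and 367 in B, against 105 and 56 in A (adjusted p = 0.849). Among the lower calls clec-190, which encodes a protein with a C-type lectin domain, had 4.52 FPKM in the group labelled CstF50 RNAi, against 51.9 FPKM in wild type (log2 change -3.52, implied standard error 0.79, q = 0.000739). It was also lower in B, with counts of 224 and 58 in B, against 269 and 66 in A before scaling to depth (means of 49.7 in B and 315 in A, adjusted p = 4.21e-05). Y44A6D.2 had 5.92 FPKM in the group labelled CstF50 RNAi, against 60.8 FPKM in wild type (log2 change -3.36, implied standard error 1.12, q = 0.0255, adjusted p = 0.234 relative to the median gene), and Y44A6D.3 on the other strand of its locus had 5.73 and 9.12 FPKM (q = 0.572). Y82E9BR.20 had 13.5 FPKM in the group labelled CstF50 RNAi, against 0.0498 FPKM in wild type (log2 change 8.08, implied standard error 2.93, q = 0.0396), but its rRNA-depleted counts were low in both conditions, 4 and 4 in B, against 2 and 0 in A. The gene nspd-10 had 105 FPKM in the group labelled CstF50 RNAi, against 2.38 FPKM in wild type (log2 change 5.47, q = 0.00395), with counts of 355 and 105 in B, against 0 and 2 in A (adjusted p = 4.25e-06). The other 5 were not called in rRNA-depleted RNA. Of these T06E4.12 had a log2 change in FPKM of 5.02 and counts of 14 and 12 in B, against 4 and 0 in A (adjusted p = 1). The log2 changes in FPKM were -3.41 for R05H11.2, -3.36 for F28A12.3 and -3.35 for Y116A8C.22, with adjusted p in rRNA-depleted RNA of 0.997, 1 and 0.549. F38E11.5 had a log2 change in FPKM of -3.33, and its mean normalized count was 3881 in B, against 3221 in A (adjusted p = 0.699). Some coding neighbours of these genes were called in rRNA-depleted RNA. Y41E3.3 beside dpy-4 and bath-25 beside nspd-10 were higher in B, 4.62-fold and 6.07-fold (authors' adjusted p = 1.3e-06 and 0.000428). F38E11.6 beside F38E11.5 was lower in B (adjusted p = 9.26e-20). F47G4.2, Y44A6D.3, F28A12.1 and T06E4.7 were not called there. In poly(A) RNA none of these neighbours was called.

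In rRNA-depleted RNA the share of members called, taken over all levels, was close to that of genes alone. By the authors' deposited values 8.31% of 25640 genes had an adjusted p under 0.05 for condition B against condition A (5.54% higher in B and 2.77% lower). Of the members 10037 were in this table and 806 (8.03%) were called, 470 higher and 336 lower, and of genes alone 1323 of 15302 (8.65%), 950 higher and 373 lower. Both shares are near the background. Coding members were called in 10.5% of 6042 cases and coding genes alone in 9.71% of 12508. By level the order varied. From 10 to 100 normalized counts 7.04% of 1663 coding members and 12.4% of 3366 coding genes alone were called. From 100 to 1000 the shares were 12.5% of coding members and 13.8% of coding genes alone. At 1000 or more they were 20.6% and 18.0%, and under 10 no gene of either set was called. A mean of 0 was listed in B for 2.42% of members and 1.93% of genes alone, and in A for 18.0% of members and 21.8% of genes alone. Refitting the recovered counts with limma-voom, an alternative added after the data were seen, called 2109 of 7851 members and 3551 of 11926 genes alone (26.9% and 29.8%, with 28.5% of all 19891 genes called). Leaving out library 1 of condition A brought the members' calls to 777.

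Pairs within a locus were closer to each other in this table than pairs of genes alone. Over 1925 within-locus pairs of coding genes the median absolute difference in log2 of B over A was 0.53, against 0.76 over 6780 pairs of genes alone. Pearson's r across pairs was 0.22 within loci and 0.18 for genes alone. Among divergent pairs r was 0.45 within 251 pairs of a locus and 0.27 in 1483 pairs of genes alone. The levels differ between these sets, with a median mean count in B of 244 in coding members beside another coding gene. In coding genes alone it was 51.9. The pairs were therefore also compared at a mean of at least 10 normalized counts, an alternative added after the data were seen. Such a minimum does not match the sets on level. Pairs of genes with the same or nearly the same counts, such as mai-1 and gpd-2, were not set apart in either comparison. The part of shared reads in the closeness of pairs was not tested. The median absolute difference within loci minus that of genes alone was -0.23 without this minimum and -0.15 with it, and r within loci minus r for genes alone was 0.03 and 0.01. Of 617 loci with a called member, 135 had 2 or more calls, in the same direction in 127 and in opposite directions in 8. Without loci in which called members had identical values, these numbers were 106 and 7. Called genes with nearly equal counts remain among them, so calls in the same direction are not all independent results.

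Some members of a locus had the very same values. In 440 loci 1011 members had means in A and B identical to those of another member of the locus, 738 of them genes for other noncoding RNAs, 177 tRNA genes and 19 coding genes. With a mean of at least 10 normalized counts there were 205 such members in 88 loci, of 6243 members at that level, while 66 of 9309 genes alone at that level matched another such gene anywhere in the table, a looser count. They formed 97 groups, and in 86 of these the genes lay on both strands. Among the 135 loci with 2 or more calls, 22 included identical values. The snRNA gene F08G2.9 and the noncoding gene F08G2.17 on the other strand of II:13835844-13836050 (ce10), chosen after their values were seen, both had a mean of 29186 in B and 79226 in A. The coding genes B0334.5 and B0334.15, on the same strand of II:11496714-11499559, both had recovered counts of 2179 and 1155 in B and 420 and 142 in A. Their deposited FPKM values were not equal: 34.1 FPKM in the group labelled CstF50 RNAi and 106 FPKM in wild type for B0334.5 (q = 0.0399), and 7.48 and 39.5 FPKM for B0334.15 (q = 0.0765). Whether reads were counted by strand is not given in the sources used here, and the 2 strands of such loci cannot be told apart.

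Of the loci with 2 or more calls in rRNA-depleted RNA, the 4 with the largest median change each paired called genes of different classes. At X:7898243-7898336 the tRNA gene C39D10.t2 and the noncoding gene C39D10.17 on the other strand had the same counts, 1 and 0 in B, against 59 and 25 in A (authors' adjusted p = 6.5e-13). At X:4410622-4410708 the tRNA gene F15A8.t2 had 2 and 0 in B, against 30 and 10 in A, and F15A8.15 on the other strand 2 and 0 in B, against 32 and 10 in A (adjusted p = 4.49e-05 and 2.42e-05). At II:3500076-3502452 the collagen gene col-71 had 1635 and 689 in B, against 2 and 0 in A, and the noncoding gene Y49F6B.15 on the other strand 329 and 144 in B, against 0 and 0 in A, at least 30.3-fold higher in B by the same floor (adjusted p = 5.07e-35 and 2.63e-08). At II:11222239-11226456 the coding gene T06D8.3 had 78 and 45 in B, against 2007 and 937 in A, and the snoRNA gene T06D8.11 on the same strand had 18 and 15 in B, against 1997 and 936 in A (adjusted p = 9.68e-19 and 8.77e-26). The counts of T06D8.3 minus those of T06D8.11 were 60 and 30 in B, against 10 and 1 in A, so nearly all counts of the coding gene in A equal those of the snoRNA gene.

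The snoRNA and snRNA genes, which guide RNA modification and form the spliceosome, were often called lower in B. Of 115 snoRNA members 53 were called, 52 of them lower in B, against 7 of 25 snoRNA genes alone, all lower. Of 76 snRNA members 27 were called, all lower in B, against 14 of 35 snRNA genes alone. Small RNAs of these classes carry no poly(A) tail, and they are present in many near-identical copies, in particular the snRNA genes. Coding members that share a locus with them were called lower in shares above the 2.77% of all genes and the 3.43% of all coding members. These were 28 of 131 beside a snoRNA gene (21.4%) and 14 of 48 beside a snRNA gene (29.2%). Their levels were also higher, and the shares were not matched on level. Median means in B and A were 1333 and 1785 beside a snoRNA gene and 355 and 994 beside a snRNA gene. In all coding members they were 158 and 147. In 27 of the 28 coding members called lower beside a snoRNA gene, the locus held a snoRNA gene that was itself called lower. This was so for 48 of the 103 coding members beside a snoRNA gene that were not lower. For the 14 beside a snRNA gene the number was 14, against 4 of the other 34. Reads in a shared stretch could be credited to both genes, which was not tested, so these joint calls cannot be taken as independent results. The 28 lay in 26 loci and the 103 in 71 loci, so some of them share the same snoRNA genes. In poly(A) RNA, where 13.6% of all tested genes were called lower, 1 of 19 tested genes among the 28 was called lower, against 9 of 73 among the 103. Among the 14 beside a snRNA gene it was 0 of 6, against 1 of 10 among the other 34. Beside tRNA genes 39 of 283 coding members were called (13.8%), 31 higher and 8 lower in B (2.83%), against 8.31% of all genes and 10.5% of all coding members called in either direction.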

How the data were processed

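The 8 deposited libraries fall into 4 groups of 2 by their titles. Per the file headers, the authors give 1 FPKM per gene and poly(A) group with a p-value and q-value in the layout of Cuffdiff (the header does not write the unit), and 1 mean of counts divided by size factors per rRNA-depleted condition, beside p and adjusted p. Bowtie, DESeq and the build ce10 are named without versions, per the submitters' processing notes; for the counter, annotation, filters and pooling the sources used here give no name. No deposited column of per-sample values was left unused (0).

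Members are genes whose locus text occurs for 2 or more gene identifiers. Gene class, strand and order came from the WBcel235 annotation (Ensembl release 115), which matched 44443 of 44968 genes (98.8%); coordinates are the authors' own, written 1-based. Log2 changes were computed from the deposited values without a pseudocount where both exceeded 0. The implied standard error is the absolute log2 change over the normal deviate of the 2-sided p-value. The test relative to the median gene used that error with Benjamini-Hochberg adjustment. Whole counts per library were recovered from rRNA-depleted means up to 10000, with a tolerance of 0.6 units of the last printed digit, for 25399 of 25640 genes in B and 25340 in A, with no ambiguous solution. Size factors were 3.63 and 1.54 in B and 0.739 and 0.249 in A. The floor of 3 counts over both libraries is 0.58 normalized counts in B and 3.04 in A and covers counting error only. Each gene of the rRNA-depleted table was used once. The tables were normalized separately.

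Sets were described by counts, shares and medians, with no test across genes. Genes named are the cpf-1 locus, a list of known operons, merged loci with 2 or more calls in a direction, loci with opposite calls (none in poly(A) RNA), the 3 loci with the most members, the called collagen members with the largest changes, and the 4 rRNA-depleted loci with 2 or more calls and the largest median change. Sperm and yolk members were to be named by the same rule as collagen members. None was called in poly(A) RNA, so members not called are given instead. Others are said to be chosen after their values were seen. The members and lists were chosen with earlier results of these data known. The alternatives were another q threshold, filters on FPKM or mean count, a pseudocount, coding genes only, smaller loci only and limma-voom on genes with a count sum of at least 10. The scripts were checked on simulated data. Python 3.11.15, pandas 2.3.3, numpy 2.4.6, scipy 1.17.1, R 4.3.3 and limma 3.58.1 were used.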

Additional observations from a re-analysis of the deposited data

How the results depend on the processing

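Values are members minus genes alone, in percentage points, unless stated. The gap in the share called in poly(A) RNA was -8.86 points with 353 members called; it was -3.90 points with 108 members called at q under 0.01, and -3.88 points with 111 members called relative to the median gene, where the members' median log2 change was -0.028. The share listed at 0 in the group labelled CstF50 RNAi differed by 21.9 points, by 15.5 points without loci of more than 10 genes, and by -13.3 points, the opposite direction, for protein-coding genes only. In poly(A) RNA members were then those that share a locus with another coding gene. All other coding genes counted as alone, among them the 2302 beside noncoding genes only. The share tested differed by -8.73 points, by -5.20 points without loci of more than 10 genes and by 19.9 points for coding genes only. In rRNA-depleted RNA the share called differed by -0.62 points, by -1.35 points at a mean of at least 10 normalized counts, and by 0.80 points for coding genes only (in this RNA all coding members against coding genes alone). The share at 0 in A differed by -3.81 points, by -1.81 points at that minimum, by -9.73 points for coding genes only and by -6.51 points without members of identical values. Limma-voom on recovered counts called 2109 members, a gap of -2.91 points; leaving out 1 library at a time gave 777 to 2421 members (2099 without library 1 of B, 1539 without library 2 of A) and gaps of -3.04 to 0.24 points (-2.85 without library 1 of B, -1.81 without library 2 of A), with 777 members and 0.24 points both without library 1 of A, the deeper library of that condition. A lone library is then assumed to vary like the other condition. Limma-voom, coding genes only and leaving out identical values in the rRNA-depleted table, and its pairs at a minimum count, were chosen after seeing the data. The other 51 values kept their direction and moved by less than the tolerance set (1.5 times for counts), and none of the causes was tested. No poly(A) library could be left out, since the table has 1 value per group. No paired analysis was possible because the deposited tables give 1 value per group, their columns carry no replicate numbers, and the recovered libraries could not be matched to samples.

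Precision is limited by the deposited form. Poly(A) values have no spread between libraries, the implied error is only as good as the authors' p-value, and depth is unknown. In rRNA-depleted RNA condition A is shallow, so low genes are often at 0 there. Values of genes that overlap, lie on opposite strands of the same stretch or have near-identical copies are uncertain.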

Other observations

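Merging was uneven between chromosomes. Among nuclear chromosomes the share of coding genes that lay in merged loci was 24.8% on V and 39.9% on IV, and 8 of 12 coding genes of the mitochondrial genome were members.

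Opposite calls inside a locus occurred in 8 loci of the rRNA-depleted table, and these were chosen after their values were seen. At III:8108724-8125409 (ce10) gei-8, which encodes a nuclear receptor co-repressor, was called higher in B, with counts of 3514 and 1427 in B, against 392 and 135 in A (authors' adjusted p = 0.0166). In the same locus the tRNA gene C14B9.t2 and the noncoding gene C14B9.13 on the other strand had identical counts, 53 and 16 in B, against 62 and 13 in A, and were called lower in B (adjusted p = 0.0121). The locus with the most coding genes, 23 among 31 members at II:4941765-5031706, held F59A6.4, called higher in B with counts of 218 and 74 in B, against 0 and 1 in A (adjusted p = 0.000435). It also held eif-1, which encodes a translation initiation factor, called lower in B with counts of 7651 and 4316 in B, against 3353 and 952 in A before scaling (means of 2454 in B and 4180 in A, adjusted p = 0.0269). The gene T27F7.4 on the same strand as eif-1 differed from it by 2 and 0 counts in B and by 0 and 0 in A. In poly(A) RNA eif-1 had 382 FPKM in the group labelled CstF50 RNAi and 2009 FPKM in wild type, and T27F7.4 had 2.72 and 11.3 FPKM; neither was called (q = 0.149 and 0.851).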
